A study of Danio rerio with 34 samples.

Results

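Integrin subunit genes were examined as 1 gene family in zebrafish RNA-seq libraries of ECs (endothelial cells), HECs (the hemogenic part of the endothelium) and HSPCs (hematopoietic stem or progenitor cells). Members were chosen by symbol alone, as the entries of the deposited count table named *itga* or *itgb* with a number, or *itgae*, *itgal*, *itgam* or *itgav*. Entries carrying an extra numbered suffix such as *itga1_1* were left out, as were the genes of integrin-binding proteins. The rule found 32 of 47048 genes, of which 20 encode alpha subunits and 12 beta subunits. No value for *itgal* was analysed here. All cells came from 36 hpf embryos of Tg(*kdrl*:mCherry/*runx1*:en-GFP), a line in which *kdrl* sequences drive mCherry in the endothelium and a *runx1* enhancer drives GFP in hemogenic cells. The embryos were either *dnmt1* mutants, of the allele s872 by the study's methods, or their siblings, whose own *dnmt1* genotypes are not given in the sources used here. There were 3 libraries each of EC siblings, EC mutants, HEC siblings and HEC mutants, and 2 each of HSPC siblings and HSPC mutants. By the methods each library was made from 500 sorted cells, so it averages over the cells of its gate, and fewer cells of a type cannot be told apart from less RNA per cell.

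Integrins are cell surface receptors made of 1 alpha and 1 beta subunit, and the pair decides which ligand is bound, such as fibronectin, laminin, collagen or a receptor on another cell. Inside the cell, talin and kindlin bind the beta tail, switch the receptor on and couple it to the actin cytoskeleton. In vertebrate blood and vessels, the beta1 integrins hold ECs to the matrix and blood progenitors to their niche, the beta2 and beta7 integrins serve leukocytes, and alphaIIb with beta3 marks platelets and, in fish, thrombocytes. During the endothelial-to-hematopoietic transition, HECs in the wall of the dorsal aorta round up and leave it, which changes their contacts with matrix and neighbours.

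Counts on genes ranged from 3125048 to 13201410 per library, and levels are given as CPM relative to these totals. The study states that its repeats were biological, but the labels do not say which embryos each RNA-seq library came from, so how much of the spread between libraries is technical cannot be told. Genotypes were taken from the column names of the count table, which match the sample titles, while a second label of each RNA sample holds the column name of the opposite genotype. If that label is the right one, every difference between mutants and siblings below is reversed. Level of *dnmt1* was 45.7 to 164 CPM in the 8 sibling libraries and 74.6 to 266 CPM in the 8 mutant libraries, and these counts do not show whether a transcript carries the mutant allele. A summed list of 13 endothelial markers was 4274 to 7936 CPM in ECs, 1578 to 2545 in HECs and 23.0 to 59.0 in HSPCs. HSPC libraries did not show a summed list of 12 HSPC markers above HECs, at 745 to 2721 CPM against 1983 to 7094 CPM. A large part of this sum in HECs was *lcp1*, which the study used as a marker of myeloid cells. *lcp1* was 675 to 4023 CPM in HECs and 73.6 to 1365 CPM in HSPCs. In this list *myb*, a transcription factor of blood progenitors, was 11.4 to 15.98 CPM in HSPCs and 59.7 to 136 in HECs. *runx1* was 1.30 to 12.4 against 15.7 to 76.4. *meis1b* of the same list went the other way, at 131 to 239 CPM in HSPCs and 29.0 to 189 in HECs, with overlap. Summed markers of red cells reached 30543 to 123413 CPM in HSPCs. They were 2647 to 12676 CPM in HECs and 4.94 to 1776 CPM in ECs. Markers of muscle reached 29781 and 23452 CPM in the HSPC sibling 3 and HSPC mutant 3 libraries. Neural and pronephros markers were also higher in HSPCs than in HECs. In HECs, macrophage and neutrophil markers summed to 3596 to 21816 CPM, against 1495 to 5962 CPM in ECs. Markers of mesenchyme and fibroblasts summed to 1753 and 4515 CPM in EC sibling 3 and EC mutant 3. They were 287 to 1075 CPM in the other ECs and 26.7 to 312 CPM in HECs. ECs also held 602 to 917 CPM of epidermis markers and 513 to 953 CPM of neural markers. The part of such RNA in the EC levels below was not tested. The names HEC and HSPC are kept below as the labels of the gates.

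In the main fit, which was not blocked on replicate number, *itga5*, *itga9* and *itgb1b* fell between ECs and HECs. Between HECs and HSPCs *itga5*, *itgb1b*, *itga4*, *itga1* and *itgb1b.2* fell. Of the 32 members, 25 passed the filter on low counts and were tested, in the fit over all 21161 tested genes, and a gene was called where its edgeR adjusted *P* was under 0.05 and its log2 fold change was 1 or more in size. With the genotypes weighted equally, 3 members were called between HECs and ECs, all lower in HECs, where 7.12% of all tested genes were called and 3.63% were called lower. Between HSPCs and HECs 5 members were called, all lower in HSPCs, beside 14.0% of all genes called and 5.62% called lower. Between HSPCs and ECs 6 members were called, all lower in HSPCs, beside 15.8% and 7.40% of all genes. The median log2 fold change of the tested members in these comparisons was -0.26, -0.95 and -0.59, against 0.02, 0.04 and 0.19 for all tested genes. These comparisons share libraries pairwise and are not independent of each other. The first count was 1 without HEC sibling 3, and the second was 2 without HSPC sibling 2 and 3 without HSPC mutant 2 or HSPC mutant 3, while the third was 6 whichever library was left out. How many of all genes were called without each library is not given here, so these counts are not set against that share. In the fit blocked on replicate number, *itgb1b* was not called between HECs and ECs, while *itgb2* and *itgam* were called higher in HECs.

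**Figure D1:**
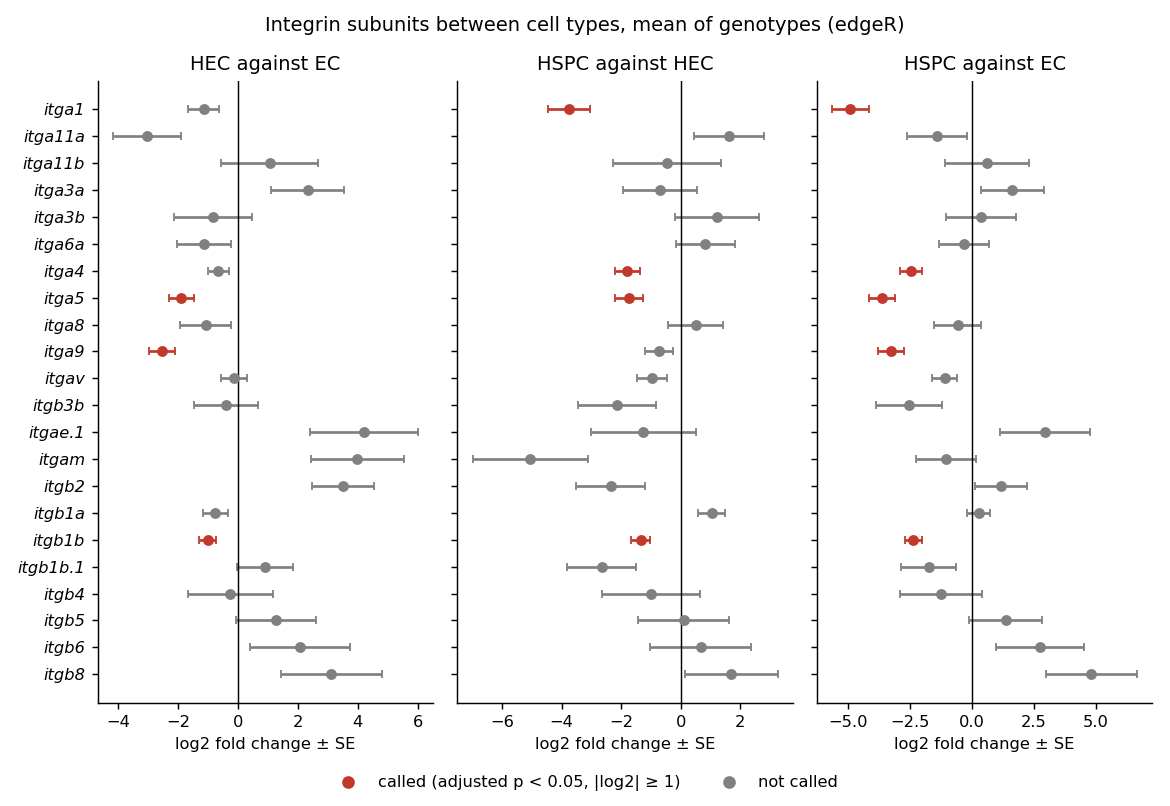
Log2 fold change (horizontal axis, error bars ± SE, edgeR) of 22 integrin subunits between cell types, with called members in red and others in grey. *itga7*, *itgb3a* and *itgb1b.2*, which lacked counts in most libraries of a group, are left out. *itgam*, *itgae.1* and *itgb8* also lacked counts in most EC libraries but are shown. *itgb1b.2*, called lower in HSPCs than in HECs and ECs, is thus not among the red points. The called members all lie left of 0, and the members with wide bars on the right, such as *itgae.1*, *itgb6* and *itgb8*, were not called.

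Among the alpha subunits that pair with beta1 to bind fibronectin and VCAM1, *itga5*, *itga4* and *itga9* were called. *itga5* encodes the alpha subunit of the classical fibronectin receptor. In replicate order 1, 2 and 3, its level was 156, 290 and 204 CPM in EC siblings and 183, 255 and 213 CPM in EC mutants. In HECs it was 22.3, 146 and 38.1 CPM in siblings and 72.6, 51.2 and 18.9 CPM in mutants. In HSPCs, of which there are replicates 2 and 3, it was 9.92 and 14.0 CPM in siblings and 27.7 and 22.6 CPM in mutants. Every HEC library lay below every EC library, with HEC sibling 2 nearest to the ECs, and every HSPC library lay far below the ECs and within or under the range of HECs. The level of *itga5* fell by 1.90 on the log2 scale from ECs to HECs (SE 0.41, edgeR adjusted *P*=0.0188), a 3.73-fold difference. From HECs to HSPCs it fell by 1.75 (SE 0.47, edgeR adjusted *P*=0.0269) and from ECs to HSPCs by 3.64 (SE 0.52, edgeR adjusted *P*=0.000327). Without HEC sibling 3 the first of these calls was lost (-1.76, edgeR adjusted *P*=0.053). The step from HECs to HSPCs was lost without HEC mutant 1 (-1.51, edgeR adjusted *P*=0.0556), HSPC sibling 2 (-1.62, 0.0878), HSPC sibling 3 (-1.85, 0.0675), HSPC mutant 2 (-1.79, 0.068) or HSPC mutant 3 (-1.70, 0.092).

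*itga4*, the alpha subunit that binds VCAM1 and fibronectin and serves blood cell adhesion and homing, kept much of its level in HECs. It was 171, 281 and 327 CPM in EC siblings and 116, 303 and 207 CPM in EC mutants. HECs held 98.0, 145 and 161 CPM in siblings and 112, 186 and 144 CPM in mutants. HSPCs held 17.5 and 80.8 CPM in siblings and 21.0 and 51.2 CPM in mutants. ECs and HECs overlapped, and all 4 HSPC libraries were below all HECs, the replicates numbered 2 lowest. Between HECs and ECs the difference of -0.66 was not called (SE 0.36, edgeR adjusted *P*=0.276). From HECs to HSPCs *itga4* fell by 1.79 (SE 0.43, edgeR adjusted *P*=0.0156), a 3.47-fold difference, and from ECs to HSPCs by 2.45 (SE 0.44, edgeR adjusted *P*=0.00191). Without HSPC sibling 2 the call against HECs was lost (-1.40, edgeR adjusted *P*=0.0511), as it was without HSPC mutant 2 (-1.53, edgeR adjusted *P*=0.0579) or without both (-1.12, edgeR adjusted *P*=0.0869).

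*itga9*, the closest relative of *itga4* among the alpha subunits and a receptor for tenascin-C and osteopontin, changed at the first step. Its level was 77.5, 96.3 and 237 CPM in EC siblings and 80.3, 85.2 and 280 CPM in EC mutants. It was 14.1, 24.9 and 31.2 CPM in HEC siblings and 20.4, 21.0 and 27.0 CPM in HEC mutants. In HSPCs it was 5.22 and 13.9 CPM in siblings and 11.6 and 31.8 CPM in mutants. The ECs stood apart from all other libraries, the EC replicates numbered 3 highest, while HECs and HSPCs overlapped. The mesenchyme markers were also highest in the EC replicates numbered 3, and the part of mesenchymal RNA in the level of *itga9* was not tested. *itga9* fell by 2.55 from ECs to HECs (SE 0.44, edgeR adjusted *P*=0.00795), a 5.86-fold difference, and by 3.27 from ECs to HSPCs (SE 0.53, edgeR adjusted *P*=0.000929). The value of -0.72 between HSPCs and HECs was not called (SE 0.48, edgeR adjusted *P*=0.336). The call between HECs and ECs held without any single library, with edgeR adjusted *P* up to 0.0282.

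The other 2 alpha subunits of this group bind the RGD motif of matrix proteins and were not called between cell types. *itgav*, the alpha subunit of the vitronectin receptors, had a lowest, median and highest level of 12.0, 30.0 and 93.9 CPM in ECs and of 16.2, 32.6 and 47.7 CPM in HECs. In HSPCs its level was 9.92 and 23.7 CPM in siblings and 16.8 and 20.2 CPM in mutants. The cell types overlapped, and the log2 difference was -0.15 between HECs and ECs (SE 0.43, edgeR adjusted *P*=0.912) and -0.95 between HSPCs and HECs (SE 0.50, edgeR adjusted *P*=0.217). *itga8*, a nephronectin receptor in the mouse kidney, was 4.79 to 38.0 CPM in ECs, 3.01 to 13.4 CPM in HECs and 0 to 30.6 CPM in HSPCs.

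**Figure D2:**
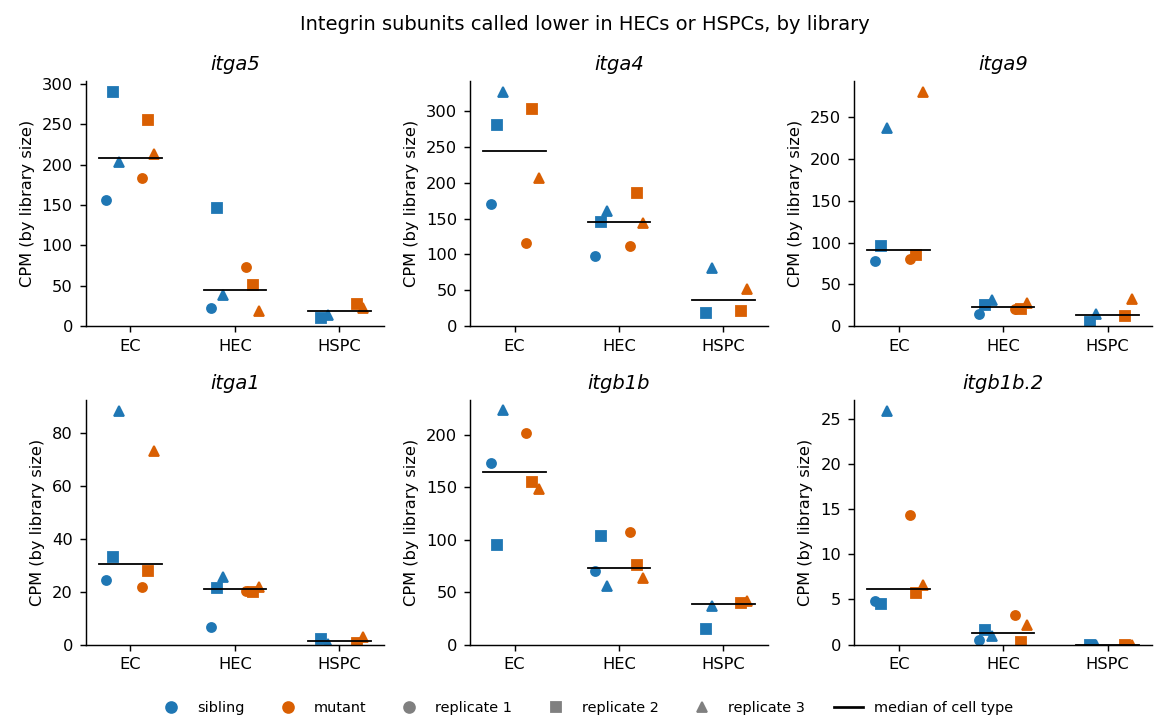
Level in CPM (vertical axes, each starting at 0) of the 6 integrin subunits called lower in HECs or HSPCs, with a point for each of 16 libraries, colour for genotype, marker shape for replicate number and a line at the median of each cell type. *itga5* and *itga9* separate ECs from HECs, *itga4*, *itga1* and *itgb1b* separate HECs from HSPCs, and *itgb1b.2* is at 0 in all 4 HSPC libraries.

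Among the alpha subunits that bind collagen, only *itga1* was called. *itga1* encodes a receptor for the collagens of basement membrane and interstitial matrix. It was 24.6, 33.3 and 88.3 CPM in EC siblings and 21.6, 27.7 and 73.2 CPM in EC mutants. It was 6.55, 21.4 and 25.6 CPM in HEC siblings and 20.4, 19.8 and 21.6 CPM in HEC mutants. In HSPCs it was 2.09 and 0.334 CPM in siblings and 0.742 and 2.73 CPM in mutants. HECs reached into the range of ECs, whereas all HSPCs lay below all HECs. *itga1* fell by 3.76 from HECs to HSPCs (SE 0.70, edgeR adjusted *P*=0.00449), a 13.6-fold difference, and by 4.91 from ECs to HSPCs (SE 0.74, edgeR adjusted *P*=0.000499). Both calls held without any single library. Between HECs and ECs the difference of -1.15 was not called (SE 0.52, edgeR adjusted *P*=0.185). The table splits this gene, and the entry *itga1_1* held 0.416 to 2.33 times the counts of *itga1*. With the entries summed, *itga1* fell by 3.38 from HECs to HSPCs (SE 0.68, edgeR adjusted *P*=0.00705). *itga11a*, a receptor for fibrillar collagen on mesenchymal cells, was 1.60 to 20.5 CPM in ECs, 0 to 4.38 CPM in HECs and 1.98 to 7.83 CPM in HSPCs, and *itga11b* did not exceed 4.30 CPM in any library. *itga10*, a collagen receptor of cartilage in mammals, and *itga2.2* were not tested. *itga10* had 94 counts in HSPC mutant 3 and at most 6 elsewhere, and *itga2.2* at most 10 counts.

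Of the beta1 genes *itgb1b* and *itgb1b.2* were called. Beta1 is the common partner of the alpha subunits above, and zebrafish carry the paralogues *itgb1a* and *itgb1b* and the *itgb1b*-related entries *itgb1b.1* and *itgb1b.2*. *itgb1b* was 173, 95.04 and 223 CPM in EC siblings and 202, 155 and 148 CPM in EC mutants. It was 69.7, 103 and 55.4 CPM in HEC siblings and 107, 76.1 and 63.1 CPM in HEC mutants. In HSPCs it was 14.4 and 37.0 CPM in siblings and 39.8 and 41.7 CPM in mutants. ECs and HECs overlapped through EC sibling 2, and all HSPCs lay below all HECs. From HECs to HSPCs *itgb1b* fell by 1.35 (SE 0.33, edgeR adjusted *P*=0.0172), a 2.55-fold difference, and from ECs to HSPCs by 2.37 (SE 0.35, edgeR adjusted *P*=0.000372). The former call was lost without HSPC sibling 2 (-1.07, edgeR adjusted *P*=0.0755), HSPC mutant 2 (-1.30, 0.0557) or HSPC mutant 3 (-1.40, 0.0541).

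Between HECs and ECs *itgb1b* fell by 1.02 (SE 0.28, edgeR adjusted *P*=0.0432), next to both thresholds. In the fit blocked on replicate number the value was -0.99 (SE 0.26, edgeR adjusted *P*=0.0283), under the fold minimum. The call was also lost when any of 9 of the 12 libraries was left out: EC sibling 1 or 3, EC mutant 1, 2 or 3, HEC sibling 1 or 3, or HEC mutant 2 or 3. Over all alternatives its log2 fold change stayed between -1.15 and -0.91, and the highest edgeR adjusted *P* was 0.111.

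*itgb1b.2* was detected in every EC and HEC library and had no counts in HSPCs. It was 4.79, 4.48 and 25.9 CPM in EC siblings and 14.3, 5.68 and 6.64 CPM in EC mutants. It was 0.524, 1.61 and 0.919 CPM in HEC siblings and 3.22, 0.231 and 2.14 CPM in HEC mutants. The cell types did not overlap in any pairing. Against the floor of 3 counts over the 4 HSPC libraries, its level in HSPCs was at least 114-fold lower than in ECs (edgeR adjusted *P*=0.00113) and at least 15.9-fold lower than in HECs (edgeR adjusted *P*=0.0111). Without both HSPC libraries numbered 3, the deeper ones, the latter call was lost (edgeR adjusted *P*=0.0953). Between HECs and ECs the log2 difference of -2.82 was not called (SE 0.83, edgeR adjusted *P*=0.0573). The file does not state how reads shared by near-identical copies were counted, so the levels of the *itgb1b* entries are uncertain relative to each other.

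*itgb1a* was not called between cell types. Its level was 16.98, 29.4 and 41.4 CPM in EC siblings and 42.6, 35.6 and 70.4 CPM in EC mutants. It was 23.1, 20.3 and 15.7 CPM in HEC siblings and 19.6, 19.1 and 29.8 CPM in HEC mutants. In HSPCs it was 34.7 and 56.6 CPM in siblings and 10.9 and 77.4 CPM in mutants. HSPC mutant 2 was below all HECs and the other 3 HSPC libraries were above all of them. The difference of 1.03 between HSPCs and HECs was not called (SE 0.46, edgeR adjusted *P*=0.143), and without HSPC mutant 2 it was called. The ratio of *itgb1b* to *itgb1a* counts, which is not corrected for length and was looked at after the values of both were seen, was 2.10 to 10.2 in ECs and 2.12 to 5.47 in HECs. In HSPCs it was 0.414 and 0.653 in siblings 2 and 3, 0.538 in mutant 3 and 3.66 in mutant 2. Thus 3 of 4 HSPC libraries lay below all other libraries and the fourth lay among the HECs. *itgb1b.1* was 0 to 31.9 CPM in ECs, 4.45 to 36.1 CPM in HECs and 1.30 to 5.84 CPM in HSPCs, and was not called.

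**Figure D3:**
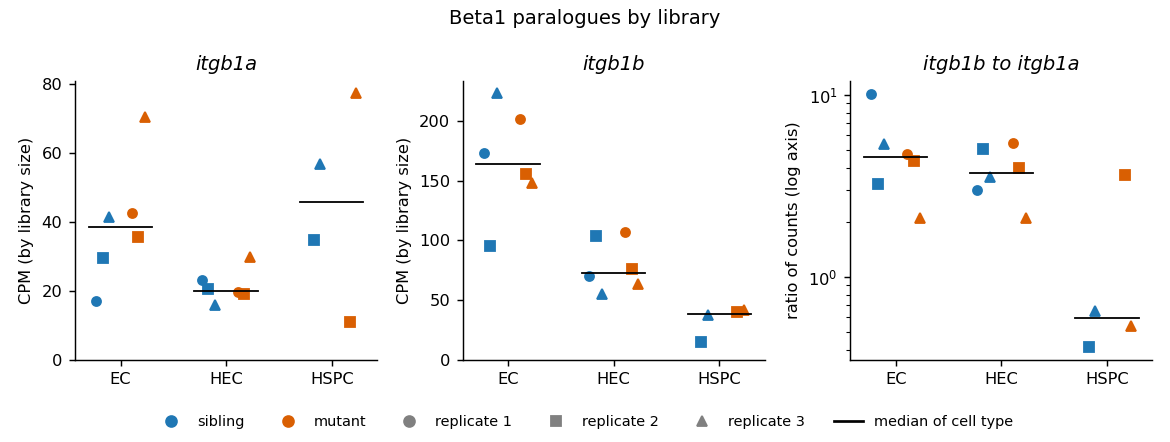
Level of *itgb1a* and *itgb1b* in CPM (left and middle) and the ratio of their counts on a log axis (right), with a point for each of 16 libraries and a line at the median of each cell type. The ratio is 2.10 or more in all ECs and HECs and below 1 in 3 of 4 HSPC libraries, with HSPC mutant 2 at 3.66.

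No laminin-binding subunit was called. *itga6a*, an alpha subunit of epithelial, endothelial and stem cell laminin receptors, had a lowest, median and highest level of 0.660, 17.5 and 41.0 CPM in ECs and of 0.153, 4.93 and 25.7 CPM in HECs. It was 14.1 and 12.5 CPM in HSPC siblings and 12.9 and 18.1 CPM in HSPC mutants. The HSPC libraries were close together and lay inside the wide ranges of both other cell types. *itga3a* was 0 to 19.3 CPM and *itga3b* 0 to 10.1 CPM over all libraries. *itga6b* had at most 10 counts and *itga6l* none, so neither was tested. The entry *itga6b_1* held 0.692 to 9.49 CPM over all libraries, and with both entries summed *itga6b* was not called. *itgb4*, the partner of alpha6 in hemidesmosomes, was 0 to 22.0 CPM in ECs, 0 to 34.0 CPM in HECs and 0.454 to 8.66 CPM in HSPCs.

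*itga7*, the laminin receptor of skeletal muscle, was found almost only in 2 libraries. It had 332 counts (27.7 CPM) in HSPC sibling 3 and 190 counts (14.4 CPM) in HSPC mutant 3, and 0 and 2 counts in HSPC sibling 2 and mutant 2. In ECs and HECs it had at most 14 counts. The list of 11 muscle markers was highest in the same 2 libraries, at 29781 and 23452 CPM, and was 15.4 and 666 CPM in HSPC sibling 2 and mutant 2. HEC mutant 1, the HEC library with the 14 counts of *itga7*, had the highest muscle sum among HECs at 6003 CPM. *itga7* was not called between HSPCs and HECs (edgeR adjusted *P*=0.0807), and the part of muscle RNA in its level was not tested. *itga8* was also highest among HSPCs in sibling 3.

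**Figure D4:**
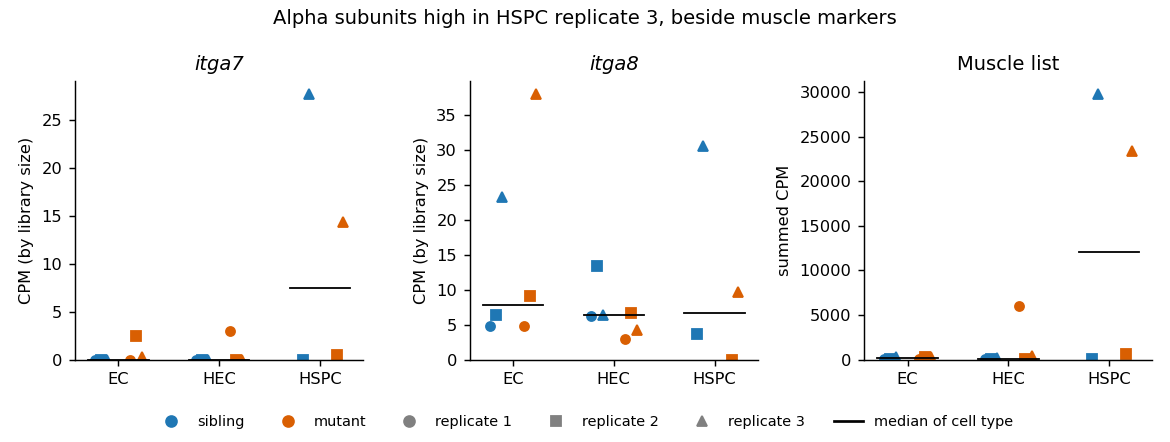
Level of *itga7* and *itga8* in CPM and the summed level of 11 muscle markers in CPM (vertical axes), with a point for each of 16 libraries and a line at the median of each cell type. *itga7* reaches 27.7 and 14.4 CPM in the HSPC replicates numbered 3, where the muscle markers sum to 29781 and 23452 CPM.

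No leukocyte integrin subunit among the members was called between cell types in the fit without a block. *itgb2*, the beta subunit that leukocytes pair with alphaL and alphaM, was 53.8, 11.2 and 15.8 CPM in EC siblings and 44.1, 0 and 31.0 CPM in EC mutants. It was 216, 99.1 and 582 CPM in HEC siblings and 136, 279 and 403 CPM in HEC mutants. In HSPCs it was 6.52 and 119 CPM in siblings and 10.6 and 99.99 CPM in mutants. Every HEC library was above every EC library, and the HSPC replicates numbered 3 reached the lowest HECs. The difference between HECs and ECs was 3.50 (SE 1.04, edgeR adjusted *P*=0.0583) and missed the threshold. In the fit with the replicate block it was 3.96 (SE 0.89, edgeR adjusted *P*=0.018) and *itgb2* was called. It was also called in the fit of ECs and HECs alone (3.49, edgeR adjusted *P*=0.0329), with DESeq2 (3.41, adjusted *P*=0.00332), and without EC sibling 1 or without HEC sibling 2. Between HSPCs and HECs the difference of -2.35 was not called (SE 1.16, edgeR adjusted *P*=0.194). Of the 25 members tested, 4 did not overlap between HECs and ECs, namely *itgb2* higher and *itga5*, *itga9* and *itgb1b.2* lower, beside 6.85% of all genes. The corresponding numbers were 4 between HSPCs and HECs, about the share of 16.1% of all genes, and 6 between HSPCs and ECs, beside 17.8%. These members were all lower in HSPCs. The share of all genes that did not overlap in that direction is not given here, so the direction is not set against it.

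*itgam*, the alpha subunit of the complement receptor of macrophages and neutrophils, was 0 in 4 EC libraries and 0.435 and 2.21 CPM in EC sibling 1 and mutant 1. It was 6.29, 0 and 8.35 CPM in HEC siblings and 13.8, 3.69 and 0.624 CPM in HEC mutants. HSPCs had 0.261 and 2.59 CPM in siblings and 0 in both mutants. HECs were higher in most libraries but overlapped with ECs, and the difference of 3.98 was not called (SE 1.55, edgeR adjusted *P*=0.127), while with the replicate block it was called (5.10, SE 1.51, edgeR adjusted *P*=0.0479). *itgae.1*, which encodes an alphaE subunit, the partner of beta7 in the receptor for E-cadherin on lymphocytes of mammals, was 0 to 2.39 CPM in ECs, 0 to 11.8 CPM in HECs and 0 to 3.42 CPM in HSPCs. *itgae.2* had at most 13 counts and *itgb7*, the beta subunit of lymphocyte homing receptors, at most 1, and neither was tested.

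Suffixed entries of *itgae.2* and *itgb7* held far more counts than these 2 members, while those of *itgae.1* held fewer than *itgae.1*. Of 14 integrin entries with a suffix, 6 had more counts than the entry without it. *itgae.2_2* was 53.8, 0.320 and 0 CPM in EC siblings and 27.1, 0 and 1.58 CPM in EC mutants. It was 204, 46.8 and 161 CPM in HEC siblings and 112, 81.6 and 188 CPM in HEC mutants. It was 2.87 and 63.4 CPM in HSPC siblings and 6.19 and 10.7 CPM in HSPC mutants. The EC replicates numbered 1 and HSPC sibling 3 were the highest outside HECs, and only EC sibling 1 and HSPC sibling 3 reached into the range of HECs. *itgb7_1* was 3.22 to 37.6 CPM and *itgb7_2* 2.36 to 46.1 CPM in HECs, against up to 6.96 and 3.09 CPM in ECs. When all entries of a symbol were summed, which was chosen after the data were seen, *itgb7* rose by 3.87 from ECs to HECs (SE 0.99, edgeR adjusted *P*=0.0327), whereas *itgae.2* was not called (3.36, SE 1.32, edgeR adjusted *P*=0.132). The calls of the other members were the same as without summing.

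The summed macrophage and neutrophil markers also had their highest median in HECs, while the lowest HEC library lay inside the range of ECs. The summed level of 11 such markers was 3596 to 21816 CPM in HECs, with HEC sibling 3 and HEC mutant 3 highest, as they were for *itgb2*. *itgam* and *itgae.2_2* did not follow this order, *itgam* being highest in HEC mutant 1 and *itgae.2_2* in HEC sibling 1. In ECs the sum was 1495 to 5962 CPM and in HSPCs 482 to 3589 CPM, with 10 of the 11 markers detected in each HEC library. Most of the sum in each EC library was *cebpb*, at 1177 to 5008 CPM in ECs and 2069 to 6002 CPM in HECs. *mpx*, the myeloperoxidase of neutrophils, was 447 to 9429 CPM in HECs and 0 to 886 CPM in ECs. *mmp9* was 670 to 6838 CPM in HECs and 0 to 809 CPM in ECs. Macrophage genes of the list were not clearly higher in HECs than in HSPCs. Medians in HECs and HSPCs were 1.42 and 3.38 CPM for *mpeg1.1* and 9.14 and 15.6 CPM for *marco*. They were 42.4 and 41.1 CPM for *mfap4* and 7.57 and 4.42 CPM for *csf1ra*. The part of macrophages and neutrophils in the level of *itgb2*, *itgam*, *itgae.2_2* and *itgb7* was not tested.

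**Figure D5:**
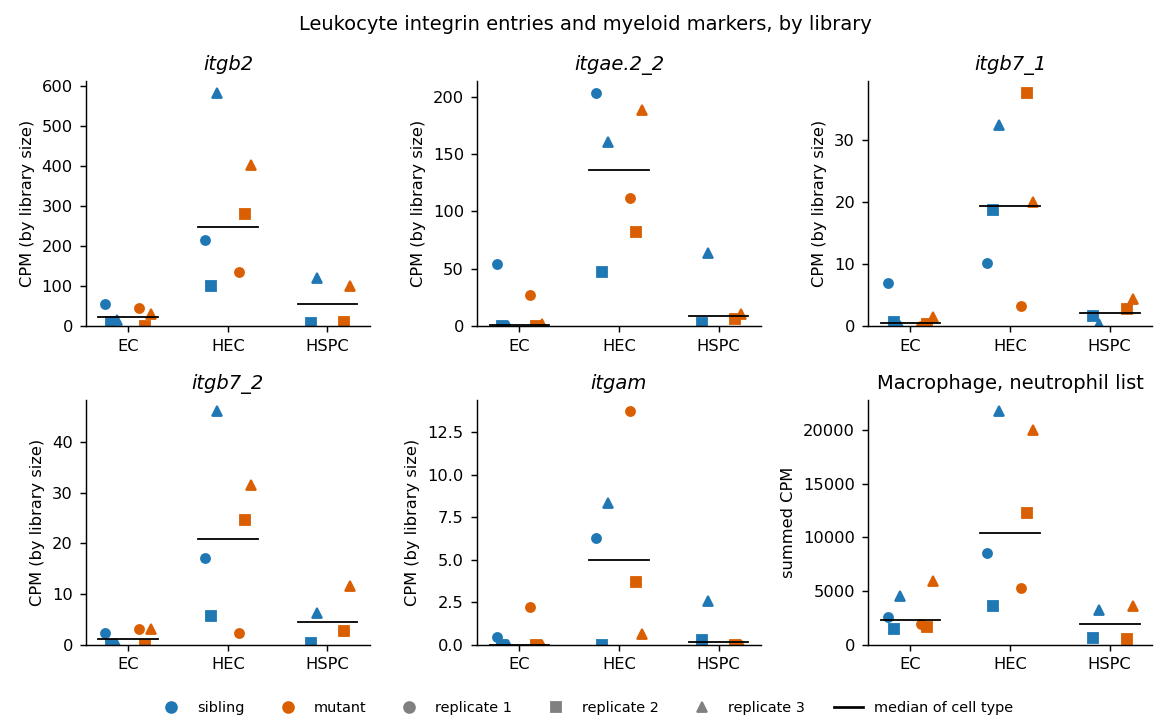
Level in CPM of *itgb2*, *itgam* and the suffixed entries *itgae.2_2*, *itgb7_1* and *itgb7_2*, and summed level of 11 macrophage and neutrophil markers (vertical axes), with a point for each of 16 libraries and a line at the median of each cell type. The median of HECs is the highest of the medians in every panel, and *itgb2* and the marker sum are both highest in HEC sibling 3 (582 CPM and 21816 CPM).

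No platelet integrin subunit was called. *itga2b*, which encodes alphaIIb and marks thrombocytes and some early progenitors in zebrafish, had 150 counts in HEC mutant 3, 4 and 6 counts in EC mutants 1 and 2, and 0 in the other 13 libraries. It was not tested. *itgb3a*, 1 of the 2 beta3 paralogues, had 9 and 19 counts in HEC siblings 1 and 3, 15 and 12 counts in HEC mutants 2 and 3, and none elsewhere. Its mean in HECs was at least 13.3-fold above the floor of 3 counts over the ECs, and the difference was not called (edgeR adjusted *P*=0.092). *itgb3b* was 0.871 to 15.4 CPM in ECs, 1.29 to 10.4 CPM in HECs and 0 to 2.09 CPM in HSPCs, and was not called. Other thrombocyte genes were detected in HSPCs, where *itga2b* and *itgb3a* had no counts and the entry *itgb3a_1* had 0.167 CPM in sibling 3 and 0.682 CPM in mutant 3. *gp1bb*, a subunit of the von Willebrand factor receptor, was 67.6 to 164 CPM there, while *mpl*, the thrombopoietin receptor, was at 0 in all 4 libraries.

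The remaining beta subunits are partners of alphav in vitronectin receptors and in the activation of latent TGF-beta. Their entries among the members were low throughout, while the suffixed entry *itgb5_1* was higher. *itgb5* did not exceed 4.73 CPM, *itgb6* 8.83 CPM and *itgb8* 7.05 CPM in any library. *itgb8* was detected in all 4 HSPC libraries, at 1.92 to 7.05 CPM, and in 2 of 6 ECs, and the difference between HSPCs and ECs was not called (4.82, SE 1.85, edgeR adjusted *P*=0.0949). The entry *itgb5_1* held most of the reads given to *itgb5*, with 4.80 to 31.4 CPM in ECs, 4.19 to 35.1 CPM in HECs and 6.26 to 20.5 CPM in HSPCs, and with both entries summed *itgb5* was not called.

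Whether these steps depend on *dnmt1* was examined by fitting them in siblings and mutants separately and by testing the difference between them. From ECs to HECs the log2 fold change of *itga9* was -2.50 in siblings (SE 0.62) and -2.60 in mutants (SE 0.62), and that of *itga5* was -1.68 (SE 0.58) and -2.11 (SE 0.58). From HECs to HSPCs the value of *itga1* was -3.90 in siblings (SE 1.02) and -3.63 in mutants (SE 0.97), and that of *itgb1b* was -1.52 (SE 0.47) and -1.18 (SE 0.46). At the same step *itga5* was -2.40 in siblings (SE 0.69) and -1.09 in mutants (SE 0.65), and *itga4* was -1.42 (SE 0.60) and -2.16 (SE 0.62). The difference between the genotypes at this step was 1.31 for *itga5* (SE 0.90, edgeR adjusted *P*=1) and -0.74 for *itga4* (SE 0.80, edgeR adjusted *P*=1), and neither was called. *itgb1b.2* had no counts in HSPCs of either genotype. Within a single genotype, with 2 or 3 libraries a group, no member was called at either step. All genes gave 0.0189% and 0.00473% calls between HECs and ECs in siblings and mutants, and 1.39% and 2.07% between HSPCs and HECs. At an unadjusted *P* under 0.05, edgeR gave 6 members in siblings and 4 in mutants between HECs and ECs, beside 14.3% and 15.3% of all genes, and 6 and 5 between HSPCs and HECs, beside 17.5% and 18.5%. DESeq2 at an adjusted *P* under 0.05 called 3 members in siblings and 2 in mutants between HECs and ECs, and 2 and 3 between HSPCs and HECs. The share of all genes that DESeq2 called is not given here, so these counts are not set against it. In the fit with the replicate block *itga9* was called between HECs and ECs in both genotypes (edgeR adjusted *P*=0.0156 in siblings and 0.0157 in mutants), and without HEC sibling 2 *itga5* was called in siblings. For the difference of a step between the genotypes edgeR called 0 members and 0% of all genes, and DESeq2 at an adjusted *P* under 0.05 called 0 members. At an unadjusted *P* under 0.05, 1 member was found for the step from ECs to HECs, *itga3a*, beside 3.62% of all genes, and 0 for the step to HSPCs, beside 2.24%.

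Between mutants and siblings of the same cell type no integrin subunit was called in ECs, HECs or HSPCs by edgeR, or by DESeq2 at an adjusted *P* under 0.05, and edgeR called 0% of all genes. At an unadjusted *P* under 0.05, 1 member was found in ECs, *itga3a*, beside 3.21% of all genes, and 0 in HECs and HSPCs, beside 2.70% and 1.92%. *itga3a* was 0, 0.640 and 0 CPM in EC siblings and 11.5, 2.47 and 7.27 CPM in EC mutants, with no overlap (5.19, SE 1.97, edgeR adjusted *P*=1). In HECs it was 9.43, 0 and 19.3 CPM in siblings and 1.505, 4.38 and 3.92 CPM in mutants, with overlap. For *itga5* the log2 difference between mutants and siblings was -0.02 in ECs (SE 0.56), -0.45 in HECs (SE 0.56) and 0.86 in HSPCs (SE 0.70). For *itgb1b* it was 0.03 (SE 0.40), 0.14 (SE 0.40) and 0.48 (SE 0.49). With 2 or 3 libraries a group, a *P* that misses the threshold does not show that the levels were alike.

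The proteins that couple integrins to the cytoskeleton were examined as a list of 46 genes, of which 42 were in the table and 41 were tested. Between HECs and ECs 9 were called, 5 higher and 4 lower, beside 3.49% of all genes called higher and 3.63% lower, with a median log2 fold change of -0.26. The kindlins changed in opposite directions. *fermt2*, the kindlin of non-blood cells, was 157 to 250 CPM in ECs and 31.1 to 129 CPM in HECs, and fell by 1.55 (SE 0.35, edgeR adjusted *P*=0.022). *fermt3b*, a paralogue of the kindlin of blood cells, was 0 to 4.74 CPM in ECs and 27.1 to 53.5 CPM in HECs, and rose by 4.86 (SE 0.95, edgeR adjusted *P*=0.0121). The parvins, which link integrin-linked kinase to actin, divided in the same way: *parvaa* fell by 2.26, while *parvb* rose by 3.74 and *parvg*, the parvin of blood cells, by 3.23. *ptk2aa*, a focal adhesion kinase, fell by 1.96 and its relative *ptk2ba* rose by 3.24. *rasgrp2*, which activates Rap1 ahead of integrin activation in platelets and leukocytes, rose by 4.60, and *cd151l*, a tetraspanin that binds laminin receptors, fell by 1.64. The EC medians of *fermt3b*, *parvb* and *rasgrp2* were 0.979, 0.248 and 0.316 CPM, so the size of their rises is uncertain. The macrophage and neutrophil sum was 1495 to 5962 CPM in ECs, most of it *cebpb*, and 3596 to 21816 CPM in HECs. The part of macrophages and neutrophils in the levels of *fermt3b*, *parvg*, *ptk2ba* and *rasgrp2* was not tested. The count of 9 was 16 without EC sibling 1, 5 without EC sibling 3 or EC mutant 3, 4 without HEC sibling 1, and 3 without HEC sibling 3 or HEC mutant 3. Shares of all genes called without these libraries are not given here, so the counts are not set against them.

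Between HSPCs and HECs 8 adaptors were called, 4 higher and 4 lower (median -0.60), and between HSPCs and ECs 18 were called, 4 higher and 14 lower, while the median of the list was 0.44. Of all genes, 8.37% were called higher and 5.62% lower in HSPCs than in HECs, and 8.44% higher and 7.40% lower than in ECs. *tln1*, the talin that activates integrins, had a lowest, median and highest level of 259, 306 and 375 CPM in ECs and of 229, 334 and 373 CPM in HECs, and was 35.6 to 150 CPM in HSPCs. All HSPCs lay below all other libraries, and *tln1* fell by 2.02 from HECs (SE 0.34, edgeR adjusted *P*=0.00257). *zyx*, the focal adhesion protein zyxin, was 116 to 183 CPM in HECs and 22.0 to 51.6 CPM in HSPCs, and fell by 1.95 (SE 0.29, edgeR adjusted *P*=0.00106). *parvab* fell by 4.64 and *rap1b* by 1.44 between HECs and HSPCs. Of the higher ones, *parvb* rose by 3.43, *lims2* by 3.64, *tns1a* by 6.21 and *cd151* by 10.04. *lims2* was 3.39 to 112 CPM in HSPCs. *tns1a* was at most 1.72 CPM in HECs and *cd151* was at 0 there, so the size of these rises is uncertain. The part of muscle and neural RNA in the HSPC levels of the higher adaptors was not tested. Without both HSPC libraries numbered 2, the count between HSPCs and ECs was 10 in place of 18, with no share of all genes given here.

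The ligands of integrins in matrix and on cells were a list of 38 genes, of which 32 were in the table and 24 were tested. Between HECs and ECs 3 were called, all lower in HECs, beside 7.12% of all genes called and 3.63% called lower. They were *fn1b*, a fibronectin gene, by -3.04, *thbs1a*, a thrombospondin gene, by -4.18 and *jam3b*, a junctional adhesion molecule, by -1.25. This count was 0 without EC sibling 2, EC sibling 3, EC mutant 3, HEC sibling 1, HEC sibling 3, HEC mutant 2 or HEC mutant 3, 1 without EC mutant 2, 5 without EC sibling 1 and 9 without HEC sibling 2. Shares of all genes called without these libraries are not given here, so the counts are not set against them. The median of the list was -2.01. The part of mesenchymal RNA in the EC levels of *fn1b* and *thbs1a* was not tested. The VCAM1 genes *vcam1a* and *vcam1b*, ligands of alpha4, did not exceed 3.96 CPM in any library. Between HSPCs and HECs 9 ligand genes were called, 5 higher and 4 lower, beside 8.37% of all genes called higher and 5.62% lower. Of the higher ones, *tnc*, the tenascin-C gene, rose by 4.03 (SE 1.23, edgeR adjusted *P*=0.0423) and *fn1b* by 2.63 (SE 0.80, edgeR adjusted *P*=0.0407). The others were *nid1a*, a nidogen gene of basement membranes, by 4.55, *jam3a* by 6.82 and *edil3a*, an alphav ligand, by 8.07. *jam3a* was at most 0.215 CPM in HECs and 3.51 to 8.41 CPM in HSPCs. *edil3a* was at most 1.45 CPM in HECs and 7.83 to 65.1 CPM in HSPCs. With HECs near 0, the size of these 2 rises is uncertain. The part of muscle and neural RNA in the HSPC levels of the higher genes was not tested. The lower ones were *spp1*, *jam2a*, *emilin2a* by -3.50 and *esm1* by -3.35. *spp1*, which encodes osteopontin, a ligand of alpha9 and alphav, was 6.16 to 26.9 CPM in HECs and at most 0.0835 CPM in HSPCs, and fell by 8.63 (SE 1.08, edgeR adjusted *P*=0.000371). With HSPCs at or near 0, the size of this fall is uncertain. *jam2a*, a junctional adhesion molecule bound by alpha4 in mammals, was 18.6 to 60.8 CPM in HECs and 2.23 to 27.3 CPM in HSPCs, and fell by 2.65 (SE 0.47, edgeR adjusted *P*=0.0034). Without both HSPC libraries numbered 3, the count of 9 was 4, again with no share of all genes given here. Against ECs, 7 ligand genes were called in HSPCs, 1 higher and 6 lower, beside 8.44% of all genes called higher and 7.40% lower.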

How the data were processed

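RNA-seq counts of 16 libraries were used. By the study's methods, the authors trimmed reads with cutadapt, aligned them to GRCz11 with HISAT2 2.2.1 and counted them per gene with HTSeq 0.12.4, and they deposited these counts as they were, not normalized. Annotation and strand setting are not given in the sources used here. Reads given to no gene, 45.8% of the total, were left out of all totals and tests. The labels describe a 3′-biased single-cell protocol, and the study's methods, with 500 cells per library, were followed. Columns were assigned to groups by their own names, which match the sample titles, although each sample's description holds the column name of the opposite genotype. Replicate numbers come from the column names and are the same under either label. The deposited methylation tiles and the authors' own comparison columns were not used.

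Genes were tested with edgeR 4.0.16 in R 4.3.3 (TMM, filterByExpr, robust quasi-likelihood fit, 1 coefficient per cell type and genotype). The printed CPM use library sizes without TMM factors. SE was computed from the fold change and the F statistic. The code of the fits was checked on simulated data with independent libraries and a fixed spread. That check does not show how the tests perform at the spread and pairing of these data. Alternatives were RLE factors, other filters, no fold minimum, only the compared groups, DESeq2 1.42.0, a replicate block and omission of each single library. Added after the data were seen were summed suffixed entries, library sizes alone, and leaving out both HSPC libraries numbered 2 or 3 or both EC libraries numbered 1.

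Same-numbered sibling and mutant libraries of ECs and HECs deviated together from their group means (correlation over genes 0.194 to 0.431 in 6 pairs, at most 0.0417 for different numbers), so numbers were taken to pair these samples, and libraries of 1 number are not fully independent. Across cell types, HSPCs included, the correlation was 0.0830 to 0.236 in 28 pairs of 1 number and -0.218 to 0.0865 in 56 pairs of different numbers. With 2 libraries in an HSPC group, the deviations of numbers 2 and 3 are equal and opposite. A correlation with 1 of them thus fixes that with the other, and the 2 are not separate evidence. HEC sibling 3, for example, had 0.218 with HSPC sibling 3 and -0.218 with HSPC sibling 2. The main fit took no account of the numbers, and the replicate block was an alternative. HSPC groups have only 2 numbers and were not treated as paired. The pairing comes from the labels and this check. All members are accounted for, and values are given in full for called members and for the subunits of leukocyte, platelet and endothelial integrins. The members and gene lists were chosen with earlier results of these data known. Plots were drawn with matplotlib 3.10.9 in Python 3.11.15.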

Additional observations from a re-analysis of the deposited data

How the results depend on the processing

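The number of integrin subunits called between HECs and ECs was 3 and became 5 in the fit of the compared groups alone, 6 with DESeq2 and 14 with DESeq2 at the study's adjusted *P* under 0.5. Between HSPCs and HECs it was 5 and became 3 with at least 10 counts in every compared library, which removes *itga1* and *itgb1b.2* from the test, 3 without both HSPC libraries numbered 2, 3 without both numbered 3 and 13 with DESeq2 at 0.5, and between HSPCs and ECs it went from 6 to 16 with DESeq2 at 0.5. Leaving out 1 library gave 1 to 4 calls between HECs and ECs (1 without HEC sibling 3), 2 to 5 between HSPCs and HECs (2 without HSPC sibling 2, 3 without either HSPC mutant), 6 to 6 between HSPCs and ECs, 0 to 1 between HECs and ECs of siblings, and 0 to 0 in all other comparisons. Within a genotype no member was called, and DESeq2 gave 3 at 0.05 and 11 at 0.5 for HECs against ECs of siblings, 2 and 11 for HSPCs against HECs of siblings, 2 and 10 for HECs against ECs of mutants, and 3 and 10 for HSPCs against HECs of mutants. Without both HSPC libraries numbered 3 the latter comparison and its counterpart in siblings each gave 1. With the replicate block, HECs against ECs gave 1 call in siblings and 1 in mutants. The block moved no other count by over 1.5 times where the numbers pair the samples. It did change which members were called between HECs and ECs over both genotypes: *itgb1b* was lost, and *itgb2* and *itgam* were called. HSPCs against HECs, which share only 2 numbers, gave 2 calls in siblings and 2 in mutants under the block, and 7 in place of 5 over both genotypes. DESeq2 at 0.5 gave 1 call for mutant against sibling ECs and 1 for the difference of the HEC step between genotypes. The shares of all genes called with DESeq2, with the block or in the other alternatives are not given here. These counts therefore show how far the calls depend on the setting, not whether members exceed the rate over all genes. The causes were not tested. With RLE factors the median of all genes between HSPCs and HECs was 0.19 against 0.04 with TMM, and the same members were called in the 3 comparisons of cell types over both genotypes. No call of a named member reversed, and all 6 calls between HSPCs and ECs held in every alternative in which the gene was tested. The members *itga10*, *itga2.2*, *itga2b*, *itga6b*, *itga6l*, *itgae.2* and *itgb7* did not pass the filter on low counts and were not tested. With the suffixed entries summed, *itga6b*, *itgae.2* and *itgb7* were tested, and of these *itgb7* was called between HECs and ECs.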
